A study of Mus musculus with 22 samples.

Results

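Donor CD4 T cells were compared with donor CD8 T cells sorted from the gut of transplanted mice, in 10 of the 22 libraries of the series. Libraries were chosen by their source name and their labels for tissue (gut) and cell type. For 2 CD8 libraries with a conflicting description the level of the gene Itgae was also looked at, as given below. Each CD4 library was set against the CD8 library with the same batch and the same treatment label, which gave 5 pairs, of which 3 carried the label anti-IL-2 (batches 181201, 181212 and 190306) and 2 the label IgG (batches 181212 and 190306). The donors were wild-type C57BL/6 mice, whose spleen and bone marrow cells went into the blood of wild-type BALB/c mice after lethal irradiation. Recipients were given a monoclonal antibody to IL-2 or control IgG every other day, and donor T cells were sorted from the colon, called gut in the labels and here, on day 7. Recipients without PD-L1, named in the title of the series, were not analysed here. All 10 libraries therefore came from irradiated recipients of a mismatched graft, and no untransplanted mouse was among them. The labels do not give the age of the animals and do not say whether the CD4 and CD8 libraries of a pair came from the same animals or from pools, so p-values measure the spread between these libraries.

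CD4 and CD8 T cells split in the thymus, where the transcription factor ThPOK (gene Zbtb7b) holds the CD4 helper lineage and Runx3 the CD8 killer lineage. Helper cells act mainly through surface ligands such as CD40 ligand and through cytokines, while CD8 cells kill with perforin and granzymes and carry receptors shared with natural killer (NK) cells. After a mismatched transplant, donor CD4 cells recognise host MHC class II and CD8 cells host MHC class I, and both enter the colon, a main target of graft-versus-host disease.

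The deposited table gave reads per gene, with totals of 14628806 to 23978193 in the CD4 libraries and 17477932 to 23761684 in the CD8 libraries. Levels are given in CPM, counts divided by each library's TMM-scaled size and not corrected for gene length, and values per library stand in the order anti-IL-2 of batches 181201, 181212 and 190306, then IgG of batches 181212 and 190306. The sort was visible in the counts: Cd4 lay between 2297 and 2483 CPM in the CD4 libraries and between 0.885 and 6.96 CPM in the CD8 libraries, and Cd8a between 0.684 and 3.54 CPM in the CD4 libraries and between 1463 and 2092 CPM in the CD8 libraries. Cd8b1 reached 8.57 to 11.2 CPM in the CD4 libraries, against 1016 to 1207 CPM in the CD8 libraries. The description field of the 2 gut CD8 IgG libraries names the spleen, against their source name and tissue label. The integrin gene Itgae, a marker of T cells held in the gut wall, stood at 115 and 79.7 CPM in these libraries, against 1.55 to 4.02 CPM in the 6 spleen CD8 libraries, and they were kept as gut, with the results of the 3 anti-IL-2 pairs alone given below. The first principal component of the 10 libraries held 45.3% of the variance and separated CD4 from CD8 libraries, and the next held 26.6% and placed both members of each pair close together. On this next component the anti-IL-2 libraries of batch 190306 did not lie with the other anti-IL-2 libraries. The anti-IL-2 libraries of batches 181201 and 181212 scored -31.5 to -27.5 and the IgG libraries of batch 181212 scored 5.83 and 10.1, whereas in batch 190306 the anti-IL-2 libraries scored 37.2 and 40.1 and the IgG libraries 12.1 and 13.3. Il2ra, the high-affinity chain of the IL-2 receptor, was likewise lower in anti-IL-2 than in IgG libraries of batch 181212 and higher in batch 190306, at 335 CPM against 115 CPM in CD4 cells and 300.1 CPM against 95.8 CPM in CD8 cells. On the principal component above, the IgG libraries of both batches scored 5.83 to 13.3. Exchanged labels in batch 190306 and a difference between batches cannot be told apart here. The treatment labels of that batch are for this reason held in doubt below. They were used as given, and whether they are exchanged was not tested. The comparison of CD4 with CD8 cells within pairs uses the treatment label only to match the libraries of a pair within a batch. An exchange made alike in both cell types of a batch would leave these pairs the same. Any result from the anti-IL-2 pairs alone or from anti-IL-2 minus IgG rests on the label itself.

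Markers of other cells were summed over each list. B and plasma cell markers (10 genes, 8 in the table) came to 27.7 to 250.3 CPM in the CD4 libraries and 35.6 to 485 CPM in the CD8 libraries, macrophage markers (13 genes) to 17.6 to 68.3 and 43.5 to 106 CPM, dendritic cell markers (11 genes) to 112 to 188 and 499.9 to 606 CPM, and epithelial markers (12 genes) to 38.8 to 123 and 67.7 to 195 CPM. Jchain, the joining chain of secreted antibodies, had 13.2, 149, 23.1, 19.1 and 196 CPM in CD4 cells, against 30.5, 454, 29.8, 16.3 and 112 CPM in CD8 cells. It was most of the B and plasma cell sum in the CD4 and the CD8 library where it was highest, but not where it was lowest. The anti-IL-2 pair of batch 181212 and the IgG pair of batch 190306 were the high ones in both cell types. Ms4a1, the gene of the B cell marker CD20, had 0 reads over the 5 CD4 libraries and 2 reads over the 5 CD8 libraries. Of the B and plasma cell markers 4 were tested, of which 2 were higher in CD8 cells, the B cell receptor chain Cd79b (-2.40 ± 0.14) and the plasma cell marker Sdc1 (-0.81 ± 0.29), while Jchain (-0.43 ± 0.47) and Cd22 (0.22 ± 0.21) were not called. Sdc1 missed the threshold in 3 of the 5 fits with a pair left out (adjusted p up to 0.233). Of the epithelial markers 9 were tested, of which 3 were higher in CD8 cells: Epcam (log2 fold change -0.74 ± 0.18, SE), Krt18 (-0.997 ± 0.22) and Cdh1, which encodes E-cadherin (-0.80 ± 0.24). Of the macrophage markers 1 of 9 tested was higher in CD8 cells, Cd68 (-1.17 ± 0.19), and of the dendritic cell markers 1 of 5, Itgax, an integrin chain also made by activated CD8 cells (-2.32 ± 0.16). Itgax made up most of the dendritic cell sum, at 72.5 to 171 CPM in CD4 cells and 424 to 596 CPM in CD8 cells. The other dendritic cell markers tested, H2-Aa, H2-Ab1, H2-Eb1 and Cd74, were not called. Among the members not tested, Clec9a, Siglech and Cd209a had 0 reads each in CD4 cells and 3, 3 and 0 reads in CD8 cells. Cdh1 passed in the 5 pairs (adjusted p = 0.0408) but not with any pair left out other than anti-IL-2 of batch 190306. Of all genes tested, 24.6% were higher in CD8 cells, against which these marker counts can be read. The part of RNA from such cells in the results below was not tested.

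The comparison asked which genes set helper from killer cells after both had entered the same inflamed tissue. Log2 fold changes are CD4 over CD8 throughout, from edgeR's quasi-likelihood test with each pair as a block, and a gene is called at an adjusted p under 0.05 (Benjamini-Hochberg over all 11623 genes tested). CD4 and CD8 cells differed widely: 5742 genes were called (49.4%), 2886 of them higher in CD4 cells (24.8%) and 2856 higher in CD8 cells (24.6%). With a change of at least 2-fold as well, a limit added after seeing how many genes passed, 855 genes were called (7.36%), 483 of them higher in CD4 cells (4.16%) and 372 higher in CD8 cells (3.2%). For 1884 genes (16.2%) the 5 CD4 and the 5 CD8 values did not overlap. Without the pair blocks 2378 genes were called. In the 3 anti-IL-2 pairs alone, which leave out the 2 libraries with the conflicting description but hold the pair of batch 190306 whose label is in doubt, 4485 genes were called, among them 4241 of the 5742 with the same direction (73.9%). Of the called genes named in this report, Cbfb, Ccl5, Cd3d, Cdh1, Eomes, Gzmk and Id3 were not called in these pairs alone. Il15ra, Il1r2, Il2rb, Mmp9, Mx1 and Srebf2 were not called there either (adjusted p = 0.0781 to 0.317 over all these genes). The median log2 fold change of all genes tested was -0.0069, so the lists below can be read against a centre close to 0. Counts of called list members can be read against the 24.8% and 24.6% of all genes. In bulk libraries a difference in the share of cells that express a gene and a difference in RNA per cell cannot be told apart.

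Among called genes with a mean of at least 2 on the log2 CPM scale and the same direction in all 5 pairs, the sorted markers aside, the largest excess in CD4 cells belonged to Cd40lg, the ligand with which helper cells activate B cells and dendritic cells. Cd40lg stood at 147, 155, 137, 175 and 192 CPM in CD4 cells, against 3.01, 1.84, 1.85, 3.59 and 3.77 CPM in CD8 cells, a log2 fold change of 5.85 ± 0.10 (adjusted p = 1.28e-09). The groups were far apart in every pair. Next came Scin, which encodes the actin-severing protein scinderin (4.57 ± 0.42), and Ptgir, the prostacyclin receptor (4.52 ± 0.17). Gpr15, a homing receptor that directs T cells to the colon, followed at 3.80 ± 0.31 (adjusted p = 0.000241). Its level in CD4 cells spread widely, with 10.6, 9.47, 118, 16.8 and 69.2 CPM, against 0.914, 0.945, 5.595, 0.365 and 8.50 CPM in CD8 cells. Both batch 190306 pairs were the high ones in CD4 and in CD8 cells alike, and within each pair CD4 cells were higher. The others among the 15 largest were Tnfsf11 (RANK ligand), Ifi204 (an interferon-inducible DNA sensor), Podnl1, Dnase1l3 (a secreted nuclease), Mmp9 (a matrix protease), Il21, Matn2, Maf, Cass4, Asb2 and Vdr (the vitamin D receptor), with log2 fold changes of 3.19 to 3.67.

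On the other side, by the same criteria, the largest excess in CD8 cells belonged to Bend4, a gene of the BEN domain family, at 9.83, 13.4, 2.35, 2.64 and 6.33 CPM in CD4 cells, against 79.2, 99.5, 58.2, 52.7 and 95.7 CPM in CD8 cells (log2 fold change -3.62 ± 0.30, adjusted p = 0.000492). Ptpn5, a tyrosine phosphatase best known from neurons, followed at -3.52 ± 0.13 (adjusted p = 2.3e-08). Jaml, an adhesion molecule that binds the epithelial receptor CAR and costimulates T cells of epithelia, stood at 32.0, 24.0, 17.7, 28.9 and 16.3 CPM in CD4 cells, against 253, 205, 247, 213 and 271 CPM in CD8 cells, a log2 fold change of -3.35 ± 0.22 (adjusted p = 0.000217). None of these genes overlapped between the groups. The list went on with Adamts14, a collagen-processing protease (-3.30 ± 0.22), the adhesion receptors Adgrg1 (-3.24 ± 0.11) and Adgrg5 (-2.85 ± 0.21), Cd244, the NK receptor 2B4 (-3.21 ± 0.19), and Crtam, a receptor of activated CD8 and NK cells (-2.91 ± 0.24). Wdr95, Rcn3, Faxc, Arap3, Gzmk, Gpr160 and Lat2 completed the 15, with values between -3.20 and -2.66.

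**Figure D1:**
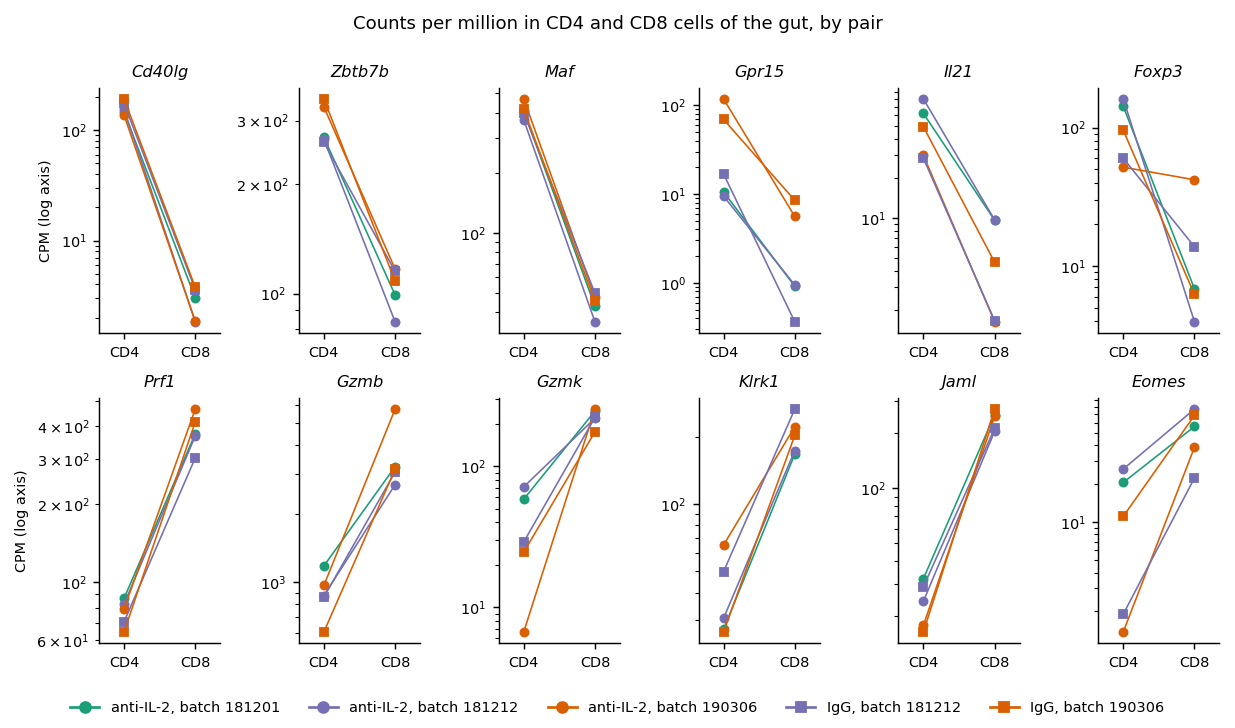
Levels in CPM (log axis) of 12 genes in CD4 cells (left) and CD8 cells (right) of the gut, with a line for each of the 5 pairs, circles for the label anti-IL-2, squares for IgG, and a colour for each batch. The lines of Cd40lg and Maf lie close together, while those of Foxp3, Gzmk and Eomes fan out.

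Promoters of these leading genes are shown because Runx factors, which bind TGTGGT, are part of the machinery that separates the lineages. The windows run from 250 bases before to 50 bases after a start given by RefSeq (GRCm38.p6), of which a gene can have more than 1. They were searched for the leading genes that the table holds, up to 4 in each direction. Of Scin, Ptgir, Gpr15 and Tnfsf11 on the CD4 side, Gpr15 held the motif, and of Bend4, Ptpn5, Jaml and Adamts14 on the CD8 side, Jaml and 1 of the 2 windows of Ptpn5 did. Both strands were searched. Capitals mark the motif in either orientation, written ACCACA where it lies on the other strand, and it occurs in 2 copies in Gpr15.
Gpr15, chr16:58718823-58719122, minus strand: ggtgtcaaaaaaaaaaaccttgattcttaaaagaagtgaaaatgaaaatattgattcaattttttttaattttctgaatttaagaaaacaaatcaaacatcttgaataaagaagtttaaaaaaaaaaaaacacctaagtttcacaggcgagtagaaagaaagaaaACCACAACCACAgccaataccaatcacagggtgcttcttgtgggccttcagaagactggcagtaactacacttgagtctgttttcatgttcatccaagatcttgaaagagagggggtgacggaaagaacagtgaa
Ptpn5, chr7:47132549-47132848, minus strand: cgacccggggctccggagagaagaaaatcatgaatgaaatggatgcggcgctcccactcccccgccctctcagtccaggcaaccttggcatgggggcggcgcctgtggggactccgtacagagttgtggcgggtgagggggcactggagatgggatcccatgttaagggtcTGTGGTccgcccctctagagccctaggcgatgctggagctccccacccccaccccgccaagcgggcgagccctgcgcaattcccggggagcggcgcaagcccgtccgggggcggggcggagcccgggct
Jaml, chr9:45078933-45079232, plus strand: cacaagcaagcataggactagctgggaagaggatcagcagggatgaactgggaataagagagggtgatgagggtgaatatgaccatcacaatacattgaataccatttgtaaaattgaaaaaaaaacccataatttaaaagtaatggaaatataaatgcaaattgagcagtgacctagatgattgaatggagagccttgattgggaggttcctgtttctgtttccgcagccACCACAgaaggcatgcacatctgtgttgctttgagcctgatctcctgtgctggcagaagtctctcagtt
Counted from the RefSeq start of each window, the first base of the motif lay at -85 and -79 in Gpr15, at -79 in Ptpn5 and at -19 in Jaml. The Ptpn5 window with the motif is set on a start inside the gene. The Ptpn5 window at the outer start of the gene (47133684 in GENCODE M21), chr7:47133635-47133934, held no motif. The motif occurred in 18.3% of 454 windows of genes at least 2-fold higher in CD4 cells and in 17.6% of 369 windows of genes at least 2-fold higher in CD8 cells, against 13.0% of 11468 windows of all genes tested and 16.8% of all 32851 windows. Some genes have more than 1 window, and these shares are descriptions without a test. A match is not a shown binding site, and a window without these letters says nothing about binding.

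Among the 12 transcription factors of the lineage list, 7 were higher in CD4 cells and 4 in CD8 cells. Zbtb7b stood at 269, 266, 327, 261 and 344 CPM in CD4 cells, against 99.1, 83.6, 117, 115 and 108 CPM in CD8 cells (1.49 ± 0.07, adjusted p = 4.14e-07), without overlap. Runx3 differed far less, with 318, 352, 529, 353 and 469 CPM in CD4 cells, against 343, 427, 581, 408 and 586 CPM in CD8 cells. Its log2 fold change was -0.21 ± 0.04 (adjusted p = 0.00174), lower in CD4 cells in each of the 5 pairs, although the ranges of the groups overlapped. Gata3, which works with ThPOK in CD4 cells (1.43 ± 0.10), Runx1 (0.94 ± 0.08) and the chromatin organiser Satb1 (0.72 ± 0.04) were higher in CD4 cells, with Lef1 at 0.42 ± 0.09, Bcl11b at 0.21 ± 0.05 and Tcf7 at 1.37 ± 0.26. Myb (-1.13 ± 0.13), Tox (-0.66 ± 0.06) and the Runx partner Cbfb (-0.17 ± 0.04) were higher in CD8 cells, and Patz1 was not called (-0.01 ± 0.06). Cbfb missed the threshold without the IgG pair of batch 181212 (adjusted p = 0.0639), and Lef1 and Tcf7 without batch 190306 (adjusted p = 0.0905 and 0.0961).

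Of 20 T cell receptor signalling genes, 10 were higher in CD4 cells and 4 in CD8 cells (median log2 fold change 0.17). Cd6, an adhesion and signal receptor (1.21 ± 0.06), Cd28, the main costimulatory receptor (0.84 ± 0.06), and Cd247, the zeta chain (0.60 ± 0.04), were higher in CD4 cells, as were the adaptors Lcp2 (0.46 ± 0.04) and Lat (0.45 ± 0.04). The CD3 chains Cd3e (-0.21 ± 0.04) and Cd3d (-0.16 ± 0.04) were slightly higher in CD8 cells, and so was the phosphatase Ptpn22 (-0.30 ± 0.06).

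Killing genes lay on the CD8 side: of 21 cytotoxicity genes tested, 15 were higher in CD8 cells and 2 in CD4 cells (median -0.68). Prf1, which encodes the pore former perforin, stood at 86.8, 82.4, 79.1, 70.4 and 64.4 CPM in CD4 cells, against 374, 367, 466, 302 and 416 CPM in CD8 cells (-2.32 ± 0.10, adjusted p = 3.79e-06). Gzmb, the granzyme that triggers apoptosis of the target, was abundant in both, with 1179, 873, 968, 859 and 604 CPM in CD4 cells, against 3216, 2681, 5758, 3048 and 3136 CPM in CD8 cells (-1.97 ± 0.21, adjusted p = 0.00141). Neither gene overlapped between the groups. Gzmk, a granzyme of less differentiated effector cells, stood at 58.3, 71.3, 6.67, 29.0 and 24.5 CPM in CD4 cells, against 246, 219, 254, 222 and 175 CPM in CD8 cells (-2.79 ± 0.59, adjusted p = 0.0191). CD8 levels of Gzmk were even across pairs, while those of CD4 cells spread by an order of magnitude. Gzma, another granzyme, spread more still in CD4 cells, with 914, 518, 794, 2227 and 85.2 CPM, against 4054, 3022, 4870, 3199 and 1477 CPM in CD8 cells, and the groups overlapped (-2.38 ± 0.60, adjusted p = 0.0319). Gzmk missed the threshold without the anti-IL-2 pair of batch 181201 or either IgG pair (adjusted p = 0.0511 to 0.0654), and Gzma without any single pair other than IgG of batch 181212 (0.0526 to 0.0967). Fasl, which kills through the receptor Fas (-0.53 ± 0.05), the cathepsin Ctsw (-0.68 ± 0.05), the granule protein Nkg7 (-0.68 ± 0.06), the granzyme B inhibitor Serpinb9 (-0.85 ± 0.06) and Gzmm (-1.16 ± 0.13) were also higher in CD8 cells. The exceptions were Srgn, the granule proteoglycan serglycin (0.51 ± 0.04), and Tnfsf10, the death ligand TRAIL (0.67 ± 0.10), both higher in CD4 cells. The granule release genes Unc13d (-0.01 ± 0.04), Stx11 (0.05 ± 0.07) and Stxbp2 (0.02 ± 0.04) were not called, nor was Gzmc (0.48 ± 0.25).

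NK receptors formed the list with the lowest median, -1.24: of 18 genes tested, 12 were higher in CD8 cells and 2 in CD4 cells. Klrk1, the receptor NKG2D for stress ligands, stood at 27.4, 30.7, 65.4, 49.7 and 26.7 CPM in CD4 cells, against 167, 173, 222, 266 and 203 CPM in CD8 cells (-2.42 ± 0.18, adjusted p = 0.000229). The inhibitory receptor chain Klrc1, NKG2A, was at -1.75 ± 0.12, Klrb1b at -2.32 ± 0.07, Klre1 at -2.41 ± 0.22, Cd160 at -1.41 ± 0.06 and the signalling adaptor Fcer1g at -2.10 ± 0.13. Klrg1, an inhibitory receptor of late effector cells, went the other way, with 30.2, 42.4, 13.0, 22.8 and 13.9 CPM in CD4 cells, against 19.4, 14.7, 6.97, 11.7 and 9.88 CPM in CD8 cells (0.92 ± 0.14, adjusted p = 0.000828). CD4 cells were higher in each pair, and the ranges overlapped. Klrb1f was the other exception (1.27 ± 0.11), while Klrb1c (-0.42 ± 0.58), Klrc3 (-0.78 ± 0.34), Klri2 (0.48 ± 0.23) and the adaptor Hcst (0.06 ± 0.04) were not called. The Klr genes of the list lie on chromosome 6 between 122270596 and 130386874 (GRCm38, GENCODE M21), a stretch that holds the NK gene complex, and 8 of the 13 tested there were higher in CD8 cells. Because these receptors are close copies of each other, reads could have been split between them. Ncr1, which defines NK cells, had a mean of 0.0663 CPM in CD4 cells and 0.246 CPM in CD8 cells.

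Helper ligands and costimulatory receptors lay on the CD4 side, with 12 of 18 higher in CD4 cells and 3 in CD8 cells (median 0.75). Beside Cd40lg, Tnfsf11 was at 3.67 ± 0.19, Tnfrsf4, the costimulatory receptor OX40, at 2.99 ± 0.12, the IL-6 receptor Il6ra at 2.37 ± 0.18, Tnfrsf18 (GITR) at 1.07 ± 0.08 and Icos at 0.998 ± 0.07. Tnfrsf4 stood at 161, 166, 208, 129 and 198 CPM in CD4 cells, against 17.1, 17.6, 36.8, 16.8 and 22.9 CPM in CD8 cells, without overlap. The members higher in CD8 cells were Cd27 (-0.82 ± 0.06), Cd226, an activating receptor (-0.71 ± 0.04), and Tnfrsf9, the receptor 4-1BB (-0.41 ± 0.06). Il6st, the signal chain shared by the IL-6 family (-0.21 ± 0.09), Tnfrsf8 (-0.21 ± 0.28) and Tnfsf4 (-1.16 ± 0.60) were not called.

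Cytokine genes of several helper programmes were higher in CD4 cells of the same libraries. Of 12 Th2 genes, 9 were higher in CD4 cells and 1 in CD8 cells (median 1.84), and of 11 Th17 genes, 10 were higher in CD4 cells and 0 in CD8 cells (median 1.72). Of all genes tested 24.8% were higher in CD4 cells and 24.6% in CD8 cells, against which these counts can be read. Il17rb, a receptor for IL-25, had 8.96, 9.41, 21.2, 60.4 and 4.05 CPM in CD4 cells, against 0.108, 0.167, 0.129, 0.208 and 0 CPM in CD8 cells, or 1980 reads against 12 reads over 5 libraries each (7.31 ± 0.23, adjusted p = 6.66e-09). Ccr4, the homing receptor of Th2 and regulatory cells, had 18.6, 17.7, 25.5, 14.6 and 26.4 CPM in CD4 cells, against 0.161, 0.167, 1.85, 0.417 and 0.637 CPM in CD8 cells (4.96 ± 0.35). Such near absence in CD8 cells was shared by the cytokine genes themselves. Il13 had 724 reads in the CD4 libraries and 20 in the CD8 libraries (5.04 ± 0.31), Il4 had 388 and 7 (5.79 ± 0.43), Il22 had 267 and 14 (4.31 ± 0.35), and Il3 had 407 and 6 (5.99 ± 0.42). With so few reads in CD8 cells, these fitted values depend on the fit's prior and give the direction more firmly than the size. Il17a was at 2.10 ± 0.22 and the IL-1 receptor Il1r1 at 2.42 ± 0.18. Ahr, the aryl hydrocarbon receptor that Th17 cells use, was at 2.04 ± 0.10, and the paired membrane protein genes Tmem176a and Tmem176b were at 1.72 ± 0.17 and 1.96 ± 0.18. Plcd1 was the Th2 list member higher in CD8 cells (-1.27 ± 0.16), and Il1rl1 (0.48 ± 0.21), Igfbp7 (0.92 ± 0.31) and Ccr6 (0.86 ± 0.35) were not called.

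Of 21 Th1 and inflammatory genes, 10 were higher in CD4 cells and 4 in CD8 cells, where 24.8% and 24.6% of all genes were. The defining pair of the Th1 programme was slightly higher in CD8 cells: Ifng, the interferon gamma gene, stood at 204, 243, 152, 284 and 241 CPM in CD4 cells, against 249, 269, 185, 388 and 349 CPM in CD8 cells (-0.34 ± 0.05, adjusted p = 0.000439). Tbx21, its transcription factor T-bet, was at -0.43 ± 0.04 (adjusted p = 6.55e-06). Both were lower in CD4 cells in each of the 5 pairs, and both overlapped between the groups. Ccl5, a chemokine stored by killer cells, was at -2.21 ± 0.55 (adjusted p = 0.0313), with 393, 435, 45.3, 308 and 84.7 CPM in CD4 cells, against 914, 1286, 714, 869 and 700 CPM in CD8 cells. Batch 190306 held the 2 low CD4 values. Ccl4, a chemokine of activated killer cells, was at -0.83 ± 0.25 (adjusted p = 0.0486). Ccl5 missed the threshold without any single pair other than anti-IL-2 of batch 190306 (adjusted p = 0.0568 to 0.0898), and Ccl4 without any single pair other than IgG of batch 190306 (0.0776 to 0.103). The members higher in CD4 cells included Lta, lymphotoxin alpha (1.74 ± 0.10), the IL-12 receptor chain Il12rb1 (0.85 ± 0.06), the IL-27 receptor Il27ra (0.83 ± 0.04) and Il18rap (0.33 ± 0.04).

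Follicular helper genes were higher in CD4 cells in 10 of 13 and in CD8 cells in 0. Maf, a transcription factor that drives Il21 and Il10 in helper cells, was even over the pairs, with 408, 369, 469, 400 and 417 CPM in CD4 cells, against 42.8, 35.8, 47.4, 49.7 and 45.3 CPM in CD8 cells (3.23 ± 0.05, adjusted p = 6.51e-11). Il21, the cytokine that supports B cells and CD8 cells, stood at 62.1, 80.0, 29.8, 28.4 and 49.2 CPM in CD4 cells, against 9.63, 9.68, 1.64, 1.67 and 4.62 CPM in CD8 cells (3.33 ± 0.22, adjusted p = 6.53e-05). Neither overlapped. Bcl6, the master factor of follicular helper cells, differed less (1.07 ± 0.06), as did the follicle homing receptor Cxcr5 (1.71 ± 0.20) and Slamf6 (0.52 ± 0.05), while Sostdc1, a secreted protein of these cells, was at 3.14 ± 0.25. Pou2af1 (0.15 ± 0.26), Sh2d1a (-0.03 ± 0.07) and Cxcr4 (-0.11 ± 0.20) were not called.

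Regulatory T cell genes were higher in CD4 cells in 9 of 15 and in CD8 cells in 0, but their defining factor was not called. Foxp3 stood at 142, 161, 51.7, 60.0 and 95.6 CPM in CD4 cells, against 6.83, 3.95, 41.9, 13.7 and 6.21 CPM in CD8 cells. The groups did not overlap, and CD4 cells were higher in each pair, yet the difference within pairs ran from 0.30 to 5.31 in log2 CPM, and the test gave 2.97 ± 0.91 (adjusted p = 0.0564). The narrow pair was anti-IL-2 of batch 190306, in which CD8 cells reached 41.9 CPM, and without it Foxp3 was called (adjusted p = 0.018). Ebi3, a subunit of IL-27 and IL-35, was nearly confined to CD4 cells, with 1205 reads against 28 in CD8 cells (5.46 ± 0.18). Izumo1r, the folate receptor FR4, was at 2.93 ± 0.29 and Ikzf4, the factor Eos, at 0.97 ± 0.09. Il10, the regulatory cytokine, was not called (1.28 ± 0.55, adjusted p = 0.127), with 64.5, 79.8, 16.1, 32.2 and 42.1 CPM in CD4 cells, against 13.5, 15.01, 17.1, 8.02 and 41.6 CPM in CD8 cells. In both batch 190306 pairs its levels were nearly equal in the 2 cell types, and without that batch it was called (adjusted p = 9.52e-08).

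**Figure D2:**
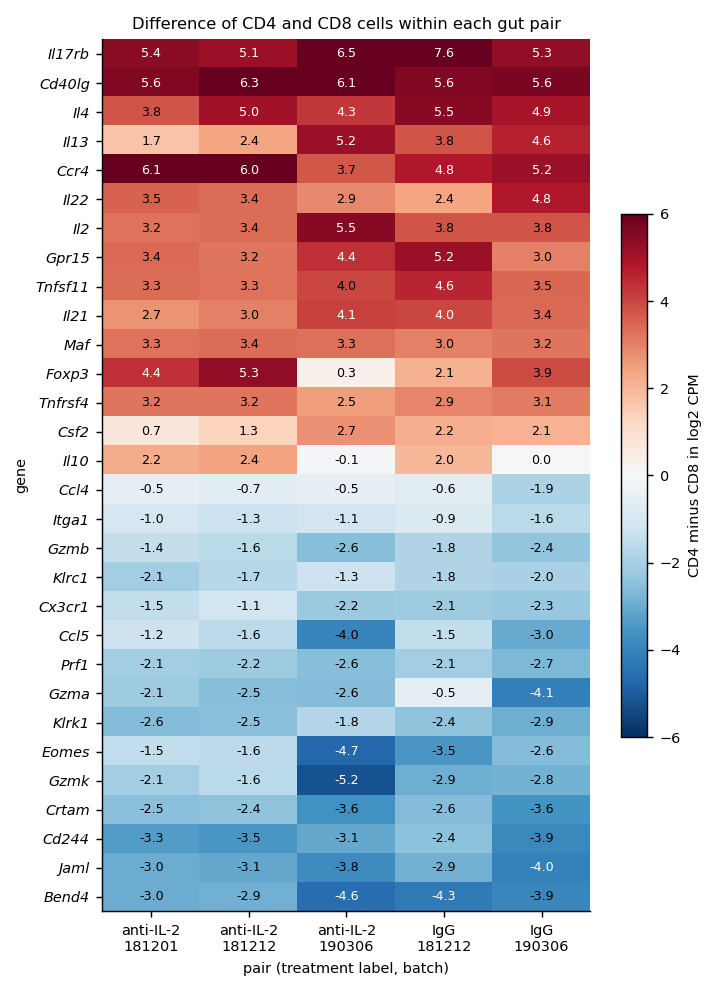
Difference of CD4 and CD8 cells in log2 CPM within each of the 5 gut pairs (columns, by treatment label and batch) for 30 genes (rows), red where CD4 cells were higher and blue where CD8 cells were higher. Maf is of nearly one size in all pairs (3.0 to 3.4), while Foxp3 and Il10 are smallest in the anti-IL-2 pair of batch 190306 and Eomes and Gzmk are largest there.

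Of 18 factors of effector and memory fate, 7 were higher in CD4 cells and 3 in CD8 cells. Eomes, the T-box factor of CD8 memory and NK cells, stood at 20.4, 26.0, 1.37, 1.89 and 11.05 CPM in CD4 cells, against 56.2, 76.8, 38.6, 22.1 and 68.6 CPM in CD8 cells (-2.44 ± 0.52, adjusted p = 0.0191). CD8 cells were higher in each pair, and the ranges overlapped by a little. Eomes missed the threshold without the IgG pair of batch 181212 (adjusted p = 0.0534) or of batch 190306 (0.0689). Irf8 was at -1.37 ± 0.09. Tcf7, the TCF1 factor of naive and memory cells (1.37 ± 0.26), Id3 (0.92 ± 0.18), the quiescence factor Klf3 (0.78 ± 0.04) and Bhlhe40, a factor of cytokine production (0.62 ± 0.05), were higher in CD4 cells. Id3 was not called in the anti-IL-2 pairs alone (adjusted p = 0.114).

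Homing receptors favoured CD4 cells, in 13 of 27 genes tested, against 3 higher in CD8 cells. After Ccr4 and Gpr15, Ccr8 was at 2.43 ± 0.22, the lymph node receptor Ccr7 at 1.45 ± 0.11, the oxysterol receptor Gpr183 at 0.64 ± 0.05 and the adhesion receptor Cd44 at 0.48 ± 0.05. Ccr9, which leads T cells to the small intestine, was not called (1.27 ± 0.44, adjusted p = 0.0754). It stood at 388, 255, 35.9, 362 and 40.9 CPM in CD4 cells, against 160, 144, 24.3, 46.5 and 26.2 CPM in CD8 cells, higher in CD4 cells in each pair and low in both batch 190306 pairs. Without the IgG pair of batch 181212, whose difference of 2.96 in log2 CPM was the widest, Ccr9 was called (adjusted p = 0.00222). Cxcr6, a receptor of resident T cells, was not called (0.11 ± 0.06, adjusted p = 0.151), with 420 to 543 CPM in CD4 cells and 371 to 556 CPM in CD8 cells. Gpr18 (-1.13 ± 0.12), the fractalkine receptor Cx3cr1 (-1.84 ± 0.21) and Selplg, a selectin ligand (-0.17 ± 0.04), were higher in CD8 cells.

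Of 19 tissue residence genes tested, 8 were higher in CD4 cells and 4 in CD8 cells, where 24.8% and 24.6% of all genes were. The collagen-binding integrins went in opposite directions: Itga2 was higher in CD4 cells (1.345 ± 0.06) and Itga1 in CD8 cells (-1.18 ± 0.10). Itga1 stood at 114, 85.5, 116, 173 and 62.4 CPM in CD4 cells, against 230, 210, 257, 321 and 189 CPM in CD8 cells, without overlap. Itgae, which encodes CD103 and binds E-cadherin of the epithelium, was at 232, 170, 51.8, 134 and 35.9 CPM in CD4 cells, against 364, 325, 82.8, 115 and 79.7 CPM in CD8 cells. It was lower in CD4 cells in 4 of 5 pairs and was not called (-0.63 ± 0.22, adjusted p = 0.0685). The exception was the IgG pair of batch 181212, and without it Itgae was called (adjusted p = 0.000142), as it was in the 3 anti-IL-2 pairs alone (6.49e-05). Nr4a2 (-0.78 ± 0.11), Litaf (-0.53 ± 0.07) and Cdh1, one of the 3 epithelial markers higher in CD8 cells, were the other members higher in CD8 cells, while Inpp4b (0.76 ± 0.05), Nr4a1 (1.01 ± 0.09) and Rgs2 (0.36 ± 0.05) were higher in CD4 cells.

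The IL-2 pathway, which the series set out to examine, was higher in CD4 cells in 15 of 22 genes tested and in CD8 cells in 2. Il2 itself had 4.95, 5.52, 4.62, 2.05 and 7.94 CPM in CD4 cells, against 0.430, 0.445, 0, 0.0521 and 0.478 CPM in CD8 cells, or 454 reads against 26 reads (4.22 ± 0.37, adjusted p = 1.32e-05). The receptor chains differed far less than the cytokine. Il2ra, the high-affinity chain, stood at 94.3, 91.6, 335, 196 and 115 CPM in CD4 cells, against 83.3, 65.3, 300.1, 174 and 95.8 CPM in CD8 cells (0.25 ± 0.05, adjusted p = 0.00226). It was higher in CD4 cells in each pair, by less than the spread between pairs. The shared chain Il2rg was at 0.53 ± 0.04 and the signalling chain Il2rb at -0.10 ± 0.04 (adjusted p = 0.0468). The IL-7 receptor Il7r (1.53 ± 0.06) and the feedback inhibitors Cish (0.87 ± 0.04) and Socs1 (0.49 ± 0.05) were higher in CD4 cells, and Il9r had 738 reads in CD4 cells against 11 in CD8 cells. Il15ra was slightly higher in CD8 cells (-0.23 ± 0.08). Il2rb missed the threshold with any single pair left out (adjusted p = 0.0578 to 0.223), and Il15ra without the anti-IL-2 pair of batch 190306 or either IgG pair (0.068 to 0.112). Bcl2 (0.07 ± 0.04), the survival factor, Jak1 (-0.02 ± 0.04), Jak3 (0.07 ± 0.05), Pim2 (0.20 ± 0.08) and Il21r (-0.11 ± 0.05) were not called.

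Of 16 genes of the inhibitory receptor list, 10 were higher in CD4 cells and 4 in CD8 cells, where 24.8% and 24.6% of all genes were. Lag3 (-1.03 ± 0.10), Havcr2, the receptor TIM-3 (-0.82 ± 0.09), Pdcd1, the receptor PD-1 (-0.57 ± 0.06), and Cd160 were higher in CD8 cells. The ligands of PD-1 were higher in CD4 cells, Cd274 at 0.89 ± 0.05 and Pdcd1lg2 at 1.06 ± 0.07, as were Lilrb4a (1.25 ± 0.06), Btla (0.89 ± 0.12), Lair1 (0.72 ± 0.10) and Vsir (0.24 ± 0.04). Entpd1 (-0.11 ± 0.13) and Nt5e (0.33 ± 0.17), the enzymes that make adenosine, were not called.

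Cell cycle genes were all higher in CD8 cells: 35 of 35 tested were called in that direction, with a median of -0.73, where 24.6% of all genes were. Mki67, the marker of cycling cells, stood at 659, 864, 729, 756 and 763 CPM in CD4 cells, against 1052, 1190, 1207, 1131 and 912 CPM in CD8 cells (-0.54 ± 0.06, adjusted p = 0.00011), without overlap. The list ran from Pcna (-0.22 ± 0.06) to Ccnb2, a mitotic cyclin (-0.89 ± 0.06), and its summed level was 3205 to 3890 CPM in CD4 cells and 4556 to 6022 CPM in CD8 cells. Rrm1 (-0.69 ± 0.05), Kif20a (-0.83 ± 0.06), Bub1 (-0.80 ± 0.06), Tpx2 (-0.79 ± 0.06) and Mcm5 (-0.82 ± 0.06) had the smallest p besides Ccnb2. Cholesterol synthesis genes shared the direction, at a smaller size, with 15 of 19 higher in CD8 cells and 1 in CD4 cells (median -0.34). Fdps, which makes farnesyl diphosphate, stood at 10.5, 8.26, 10.9, 9.81 and 9.88 CPM in CD4 cells, against 17.3, 15.8, 14.6, 14.8 and 14.8 CPM in CD8 cells (-0.64 ± 0.09, adjusted p = 0.000153), without overlap. Pmvk was at -0.55 ± 0.06, the sterol demethylase Cyp51 at -0.50 ± 0.05 and Hmgcs1 at -0.40 ± 0.05, while Srebf2, the factor that drives the pathway, was slightly higher in CD4 cells (0.18 ± 0.04). Mvk (-0.23 ± 0.09), Sc5d (-0.06 ± 0.07) and Insig1 (-0.06 ± 0.06) were not called. Of the glycolysis genes 5 of 18 were higher in CD4 cells and 2 in CD8 cells, where 24.8% and 24.6% of all genes were. Pfkp, a phosphofructokinase, had the smallest p of the list (-0.64 ± 0.04).

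**Figure D3:**
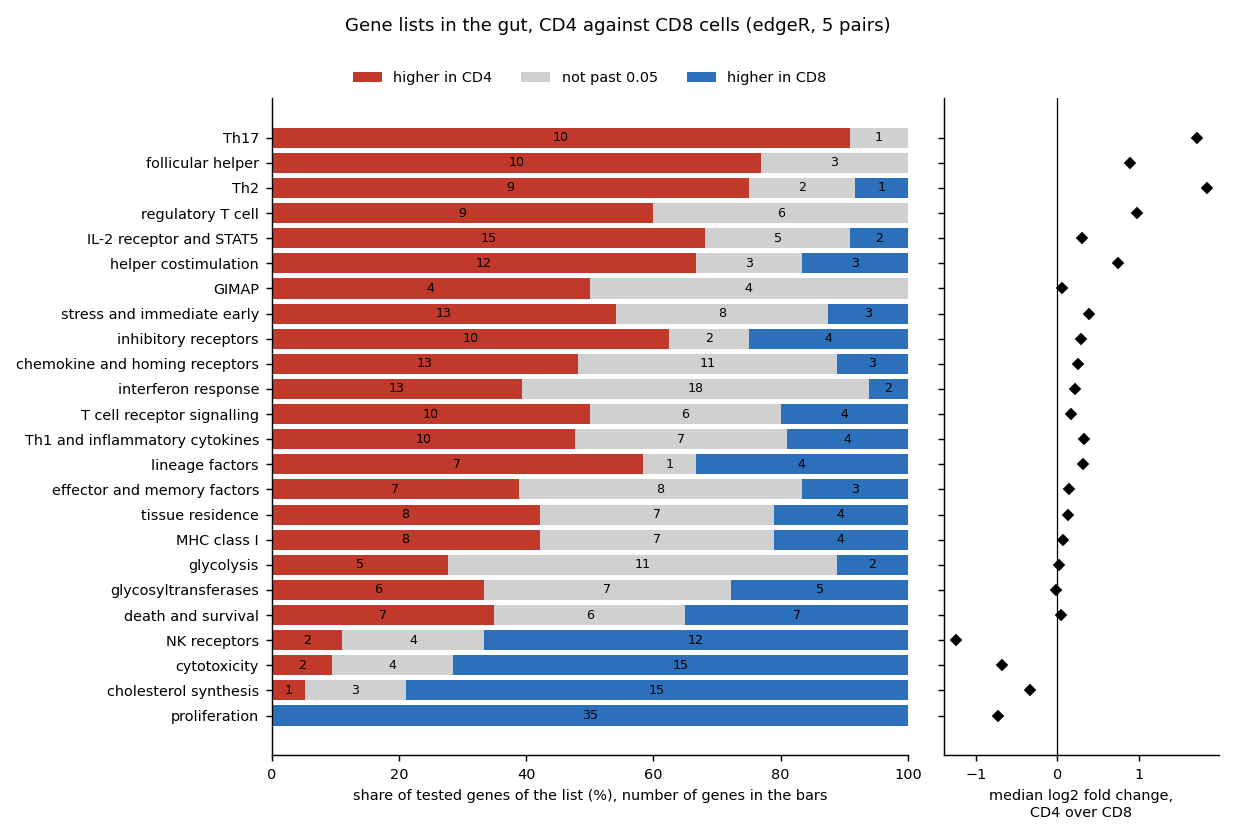
Share of the tested genes of 24 lists that were higher in CD4 cells (red), not past the adjusted p of 0.05 (grey) or higher in CD8 cells (blue), with the number of genes in each bar, and on the right the median log2 fold change of each list. The lists at the top (Th17, follicular helper and Th2) lie on the CD4 side and those at the bottom (NK receptors, cytotoxicity, cholesterol synthesis and proliferation) on the CD8 side.

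The remaining lists were mixed. Of all genes tested, 24.8% were higher in CD4 cells and 24.6% in CD8 cells, against which their counts can be read. Interferon response genes were higher in CD4 cells in 13 of 33 and in CD8 cells in 2. Ifih1, a sensor of viral RNA, was at 1.17 ± 0.06, Oasl2 at 2.002 ± 0.17, Ifitm3 at 1.76 ± 0.11 and Ly6a at 0.74 ± 0.05 in favour of CD4 cells, against Mx1 (-1.14 ± 0.34) and Dhx58 (-0.30 ± 0.07). Mx1 was even in CD8 cells, at 26.8 to 30.9 CPM, and uneven in CD4 cells, at 6.15 to 25.4 CPM, and its call was lost without any single pair other than anti-IL-2 of batch 181212 (adjusted p = 0.0571 to 0.134). MHC class I genes were higher in CD4 cells in 8 of 19 and in CD8 cells in 4, with the heavy chain H2-K1 at 0.44 ± 0.04, H2-Q4, one of a family of close copies, at 0.66 ± 0.05, and the immunoproteasome subunit Psmb10 at -0.26 ± 0.04. Immediate early and stress genes were higher in CD4 cells in 13 of 24 and in CD8 cells in 3, among them Egr2, a factor induced by receptor signals (1.76 ± 0.13), Dusp1 (0.92 ± 0.07), Nr4a3 (0.80 ± 0.09) and Junb (0.75 ± 0.06). Death and survival genes were even, 7 of 20 in each direction. The inhibitors Birc3 (0.73 ± 0.06) and Cflar (0.36 ± 0.05) were higher in CD4 cells, but so was Bbc3, which promotes death. The killers Bid (-0.70 ± 0.07) and Bmf (-0.94 ± 0.13) were higher in CD8 cells. Of the glycan enzymes 6 of 18 were higher in CD4 cells and 5 in CD8 cells. The sialyltransferases St8sia1 (2.52 ± 0.15) and St3gal2 (1.69 ± 0.06) were higher in CD4 cells, and St3gal6 (-2.60 ± 0.18) in CD8 cells. Of 8 GIMAP genes 4 were higher in CD4 cells, by at most 0.28 ± 0.06 (Gimap6).

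The spleen libraries of the same recipients' groups, 6 pairs of CD4 and CD8 cells, were set beside the gut to see where the difference between the cell types depended on the tissue. The 22 libraries were fitted together with 11 pair blocks and a cell type term per tissue, and the difference of the differences, gut minus spleen, was tested for 12841 genes. It was called for 1788 genes (13.9%), 969 with a positive value (7.55%), meaning that CD4 cells stood higher relative to CD8 cells in the gut than in the spleen, and 819 with a negative one (6.38%). The count was 42 without the pair blocks, 499 in the anti-IL-2 pairs alone and 827 without batch 190306. Of the 1788 genes, 1013 had the same sign in both tissues and a smaller size in the gut, 216 had the same sign and a larger size in the gut, and 559 changed sign, of which 111 were called in each tissue. Gut minus spleen was not called for several large helper and killer differences, Cd40lg (0.16 ± 0.24), Zbtb7b (-0.17 ± 0.13), Maf (0.29 ± 0.11), Gzmb (0.52 ± 0.22), Gzmk (-0.31 ± 0.65) or Foxp3 (1.04 ± 1.09). Ptpn5 was lower in CD4 cells in both tissues, by more in the gut (-3.51) than in the spleen (-1.79), a difference of -1.72 ± 0.21 (adjusted p = 0.000113).

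Klrg1 changed sides between the tissues: its log2 fold change was 0.93 ± 0.14 in gut and -0.90 ± 0.13 in spleen, a difference of 1.83 ± 0.19 (adjusted p = 0.000113). In the gut its median was 22.8 CPM in CD4 cells and 11.7 CPM in CD8 cells, and in the spleen 12.8 CPM in CD4 cells and 20.9 CPM in CD8 cells. Of the Th17 genes, 6 of 12 tested had a positive gut minus spleen value and 0 a negative one, where 7.55% of all genes were positive. Ccr6, the homing receptor of Th17 cells, was at 0.82 ± 0.42 in gut and -1.27 ± 0.38 in spleen (difference 2.09 ± 0.57, adjusted p = 0.0359). Il17a (1.92 ± 0.61), Il23r (1.66 ± 0.41), Ltb4r1 (1.08 ± 0.29) and Rora (0.60 ± 0.11) were also positive. These calls were narrow: of the 5 genes named, only Rora passed without batch 190306, and only Il23r in the anti-IL-2 pairs alone (adjusted p = 0.0335). Left out one at a time, 9 of the 11 pairs cost Il17a its call and 7 of the 11 pairs cost Ccr6 its call, with adjusted p up to 0.115 for Il17a and 0.0886 for Ccr6. The 8 largest positive values included Nos1, Nrgn, Prr5l, Serpine2 and Prr5, which were higher in CD8 cells of the spleen (-2.07 to -1.07) and not called in the gut (-0.62 to 0.36). Prr5l missed the threshold in most fits with a pair left out. Prr5l, Serpine2 and Prr5 were not called without batch 190306 (adjusted p = 0.15, 0.117 and 0.205) or in the anti-IL-2 pairs alone (0.25, 0.0949 and 0.14).

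Itgae had a negative gut minus spleen value. Its median was 134 CPM in CD4 cells and 115 CPM in CD8 cells of the gut, against 8.15 CPM in CD4 cells and 2.18 CPM in CD8 cells of the spleen, and its log2 fold change was -0.62 ± 0.20 in gut and 1.86 ± 0.36 in spleen (difference -2.48 ± 0.41, adjusted p = 0.00458). Without batch 190306 this difference was not called (adjusted p = 0.111). Itgae was also looked at in keeping the gut CD8 IgG libraries as gut, so its value is not independent of that choice. In the anti-IL-2 pairs alone, which leave these libraries out, the difference was called (-2.31, adjusted p = 0.0293). Within the gut Itgae was not called by the gut comparison (adjusted p = 0.0685), and the IgG pair of batch 181212 went the other way. Spsb1, an adaptor of ubiquitin ligases, was at -0.25 ± 0.11 in gut and 2.70 ± 0.28 in spleen (-2.95 ± 0.30, adjusted p = 3.82e-05), and Osgin1 (-2.34 ± 0.41), Apol9b (-2.54 ± 0.67), Cdh1 (-2.04 ± 0.46) and Maats1 (-2.28 ± 0.47) were negative as well. Apol9b and Cdh1 were not called in the anti-IL-2 pairs alone (adjusted p = 0.0739 and 0.273). Spsb1 and Osgin1 were low in the spleen, with medians of 1.48 and 2.90 CPM in CD4 cells and 0.227 and 0.654 CPM in CD8 cells. Follicular helper genes stood lower in gut than in spleen, relative to CD8 cells, in 7 of 14 and higher in 0, where 6.38% of all genes were negative. Bcl6 was at 1.07 in gut and 2.37 in spleen (difference -1.30 ± 0.10, adjusted p = 8.24e-07), Gpm6b at 0.76 and 3.09 (-2.33 ± 0.15), Cebpa at 1.69 and 4.12 (-2.43 ± 0.54) and Slamf6 at 0.52 and 1.16 (-0.64 ± 0.08). Interferon response genes were negative in 13 of 34 and positive in 1, such as Ifit1 (-1.23 ± 0.23) and Isg15 (-0.95 ± 0.19), of which Ifit1 was not called in the anti-IL-2 pairs alone (adjusted p = 0.0876). Of the macrophage markers, 3 of 12 tested were negative as well, C1qb (-2.33 ± 0.48), C1qc (-2.19 ± 0.63) and Mrc1 (-2.23 ± 0.62), with C1qb between 0.0427 and 3.68 CPM in gut CD4 libraries and between 0.808 and 26.5 CPM in spleen CD4 libraries. The calls of C1qc and Mrc1 were lost in most fits with a pair left out, and all 3 were lost without batch 190306 (adjusted p = 0.0723 for C1qb, 0.0932 for C1qc and 0.138 for Mrc1). Their part in the follicular helper and interferon values was not tested.

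Cell cycle genes were positive in 30 of 35 and negative in 0, where 7.55% of all genes were positive and 6.38% negative. CD8 cells exceeded CD4 cells in both tissues, by less in the gut. The positive count was 14 in the anti-IL-2 pairs alone, 19 without batch 190306 and 0 without the pair blocks. Mki67 was at -0.54 in gut and -1.07 in spleen, a difference of 0.53 ± 0.09 (adjusted p = 0.00132). Runx3 showed the same shape, at -0.21 and -0.47 (0.26 ± 0.06, adjusted p = 0.00646), and so did Prf1, at -2.32 and -2.85 (0.53 ± 0.13, adjusted p = 0.019), and Ifng, at -0.34 and -0.78 (0.44 ± 0.12, adjusted p = 0.028), although Ifng lost its call without batch 190306.

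**Figure D4:**
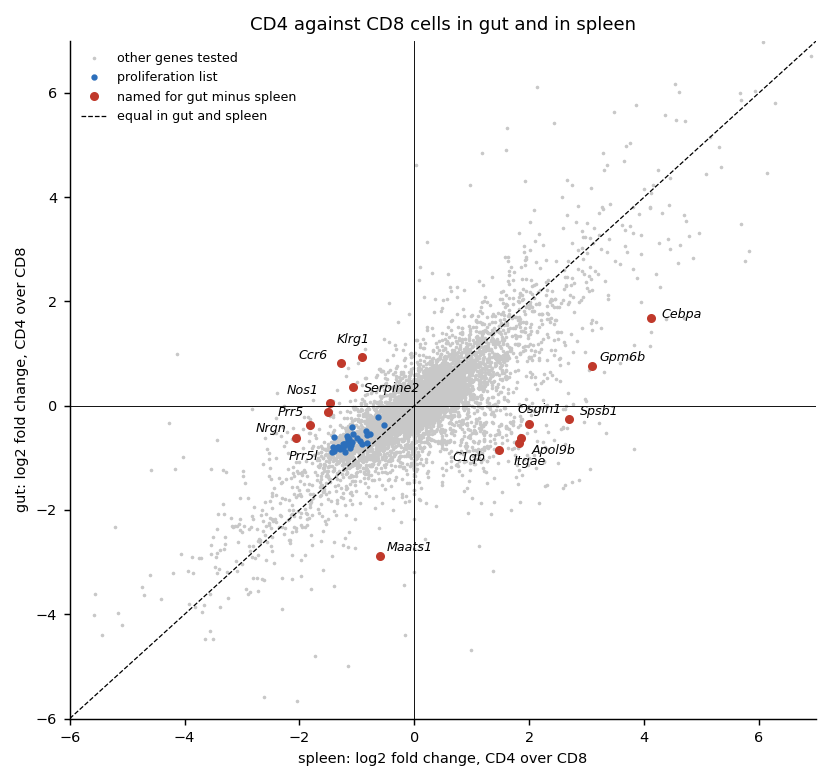
Log2 fold change of CD4 over CD8 cells in gut (vertical axis) against spleen (horizontal axis) for genes of the fit of 22 libraries within the axes (5 genes lie outside), with the proliferation list in blue, genes named for the largest gut minus spleen values in red, and a dashed line where both tissues are equal. Klrg1 and Ccr6 lie in the upper left, Itgae, Spsb1 and Apol9b in the lower right, and the proliferation genes left of 0 and above the dashed line.

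**Figure D5:**
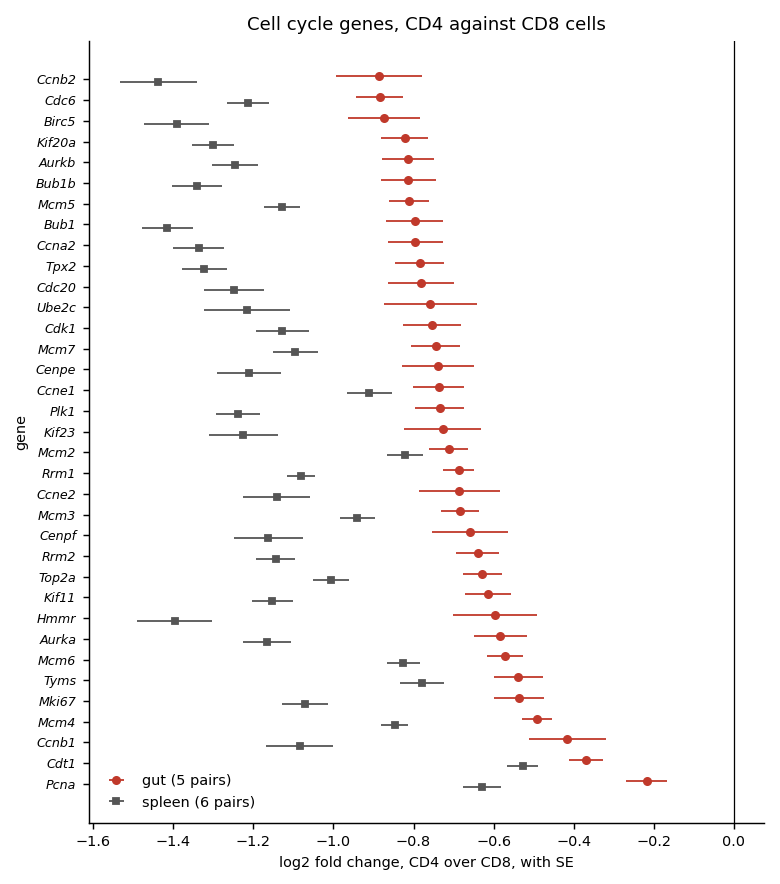
Log2 fold change of CD4 over CD8 cells with its SE for the 35 genes of the proliferation list, in gut (circles, 5 pairs) and spleen (squares, 6 pairs). Every point lies left of 0, and the gut value is nearer to 0 than the spleen value for each gene.

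Whether the difference between CD4 and CD8 cells in the gut depended on the antibody was tested as the difference between the 3 anti-IL-2 pairs and the 2 IgG pairs. By edgeR 0 of 12841 genes were called (0%), with 877 at an unadjusted p under 0.05, and DESeq2 called 0 as well, with 372 at an unadjusted p under 0.05. The 5 smallest p-values belonged to Fam84b (0.70 ± 0.12), Shmt2, an enzyme of mitochondrial serine use (-0.44 ± 0.08), Lyz2 (-2.17 ± 0.42), Sgk1 (0.48 ± 0.09) and Derl3 (-2.97 ± 0.63), each with an adjusted p of 0.645 or more. Lyz2 is a macrophage gene that reached 18.9 CPM in CD4 cells and 27.8 CPM in CD8 cells of the anti-IL-2 pair of batch 181201. This test takes the treatment labels as given, and those of batch 190306 are in doubt, so the 0 calls do not show that the antibody left the difference as it was. Without batch 190306, 403 genes were called, in a fit with 1 IgG pair in the gut. Il2ra within pairs was higher in CD4 cells by 0.06 ± 0.12 more in anti-IL-2 than in IgG pairs (adjusted p = 0.947).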

How the data were processed

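The authors deposited a table of read counts per gene for 22 libraries of sorted donor T cells. Per the labels' protocols a kit for stranded mRNA libraries was used, and per the submitters' processing notes TopHat2, HTSeq (version 0.9.1) and mm10 were used. The strand setting and annotation are not given in the sources used here, so overlapping genes and close copies (Klr, H2-Q, Ifi and Apol families) are uncertain. Counts were used as deposited. Genes with low counts were removed with filterByExpr, libraries were scaled by TMM, and CD4 and CD8 cells were compared with edgeR's quasi-likelihood test (edgeR 4.0.16, R 4.3.3) with each pair as a block and Benjamini-Hochberg adjustment. An adjusted p under 0.05 is a call. CPM use scaled library sizes, and differences within pairs use log2 CPM with a prior count of 2. Libraries of a pair share batch and treatment label, and their deviations from the cell type means correlated at 0.656 to 0.805, each above the best other library. The test of the gut comparison was checked on simulated counts in which a gene's difference was the same in every pair. That check does not cover differences that vary between pairs. DESeq2 1.42.0, limma 3.58.1 and other settings were alternatives. Intervals and SEs cover no shared handling, and few reads limit the rarest genes.

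Named genes were the 15 largest per direction above a mean level of 2 in log2 CPM, up to 6 members per direction of each list by p, uncalled members counted as 5 or fewer, the 8 largest gut minus spleen values per direction, and 17 genes always named, less some genes not reported here. The members and lists were chosen with earlier results of these data known. Gzma, Klrk1, Il10, Csf2 (in the plot of pair differences alone), members of the Th17, interferon and macrophage lists with gut minus spleen values, and others beside these rules were chosen after their values were seen. Positions of the Klr genes came from GENCODE M21, and promoters from a RefSeq table that covered 9048 of the 11623 genes tested.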

Additional observations from a re-analysis of the deposited data

Results flagged for a closer look

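Il2 stood apart in 1 pair: CD4 cells exceeded CD8 cells by 5.481 in log2 CPM in the anti-IL-2 pair of batch 190306, against 3.237 to 3.785 in the other pairs. The CD8 library of that pair had no Il2 read, so the value depends on the prior count. The gap was 0.756 of the range, and of 45 genes examined in this way 1 stood out, where chance gives about 1 in 20.

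The difference between CD4 and CD8 cells was not the same in gut and spleen for the following genes, by edgeR's test of gut minus spleen. CD4 cells stood higher in gut relative to spleen for Ccr6 (2.095), Klrg1 (1.83), Nos1 (1.51), Nrgn (1.443), Prr5l (1.443), Serpine2 (1.435) and Prr5 (1.38). They stood lower for Spsb1 (-2.952), Apol9b (-2.537), Itgae (-2.484), Cebpa (-2.429), Osgin1 (-2.339), Gpm6b (-2.331), C1qb (-2.33) and Maats1 (-2.277). Maats1 was higher in CD8 cells of the gut (-2.88 ± 0.38) and not called in the spleen (-0.60 ± 0.25). Cebpa and Gpm6b were higher in CD4 cells in both tissues, and C1qb, a complement gene of macrophages, was higher in CD4 libraries of the spleen (1.48 ± 0.26) and not called in the gut (-0.85 ± 0.40). Without batch 190306 the test gave an adjusted p of 0.0797 for Ccr6, 0.15 for Prr5l, 0.117 for Serpine2, 0.205 for Prr5, 0.111 for Itgae and 0.0723 for C1qb. In the anti-IL-2 pairs alone, of which the pair of batch 190306 has a label in doubt, it gave 0.0592 for Ccr6, 0.25 for Prr5l, 0.0949 for Serpine2, 0.14 for Prr5 and 0.0739 for Apol9b. The other genes named here were called in both fits.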

How the results depend on the processing

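The gut comparison called 5742 genes with the replicate block of the pairs, 2378 without it and 2647 in the 2 IgG pairs alone. It called 3968 with batch and treatment terms, 4706 by DESeq2, 5753 by limma voom, 5758 with RLE size factors, 5670 with no filter, 6727 with all 22 libraries, 4485 in the anti-IL-2 pairs and 4995 without batch 190306, and 4835 to 5280 with 1 pair left out. Gut minus spleen called 1788 genes, against 42 without the pair block, 499 in the anti-IL-2 pairs, 827 without batch 190306, 1504 to 1799 under DESeq2, RLE or no filter, and 1273 to 1753 with 1 pair left out. Anti-IL-2 minus IgG called 0 genes, and 0 without the pair block, by DESeq2, with RLE, with no filter or in the 10 gut libraries alone, but 403 without batch 190306 and 0 to 9 with 1 gut pair left out. The 9 came without the anti-IL-2 pair of batch 190306. The cause of these changes was not tested.

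Of 192 named genes called in the gut, 181 were also called in every fit with 1 pair left out, and the 11 others are given in the report. Over all alternatives, 3725 of 4100 values of named genes kept direction and side of the threshold, 281 lost and 56 gained the call, and 38 changed sign. The genes that changed sign were not called in the comparison concerned. Patz1 was at 0.00579 by DESeq2, 0.00619 with RLE and 0.00212 with no filter, and Pou2af1 at -0.0266 without the pair block. In the anti-IL-2 pairs alone Patz1 was at 0.00653, Unc13d at 0.0076, Tnfrsf8 at 0.0325, Pou2af1 at -0.192, Sh2d1a at 0.0251, Cxcr4 at 0.00309, Jak1 at 0.0314 and Entpd1 at 0.0189. In the IgG pairs alone Cd22 was at -0.0723 and Jchain at 0.587. Without batch 190306 Patz1 was at 0.0298, Tnfrsf8 at 0.05005, Pou2af1 at -0.145, Sh2d1a at 0.074, Cxcr4 at 0.0657, Entpd1 at 0.119 and Gzmk in gut minus spleen at 0.0402. With 1 pair left out the values ran from -0.137 to 0.00194 for Sc5d, -0.0386 to 0.047 for Patz1, -0.00798 to 0.117 for Stx11, -0.102 to 0.0204 for Sh2d1a, -0.293 to 0.0293 for Cxcr4, -0.0267 to 0.0238 for Unc13d, -0.774 to 0.0476 for Klrb1c, -0.0465 to 0.0025 for Jak1, -0.345 to 0.105 for Tnfrsf8, -0.048 to 0.54 for Pou2af1, -0.185 to 0.0314 for Entpd1, -0.647 to 0.132 for Gzmk in gut minus spleen, -0.0231 to 0.259 for Cd40lg in gut minus spleen and -0.035 to 0.113 for Il2ra in anti-IL-2 minus IgG.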

Other observations

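The following 8 genes, each best known from B cells or myeloid cells, were higher in CD8 cells. They were picked after their values were seen and come from no fixed list, so they stand for no group. Syk, a kinase that B cells use in place of ZAP-70, stood at 3.08, 3.52, 1.41, 2.26 and 2.67 CPM in CD4 cells, against 19.8, 18.1, 4.65, 8.49 and 9.77 CPM in CD8 cells. Its log2 fold change was -2.14 ± 0.15, and the groups did not overlap. Lyn (-1.45 ± 0.10), the phospholipase Plcg2 (-1.42 ± 0.23), the adaptor Lat2 (-2.66 ± 0.16), the receptor chain gene Cd79b (-2.40 ± 0.14), Cd72 (-2.34 ± 0.18), Tnfrsf13c, the receptor for BAFF (-1.51 ± 0.13), and the oxidase subunit Ncf1 (-2.11 ± 0.16) shared the direction in all 5 pairs. Ms4a1, the gene of the B cell marker CD20, had 0 reads in the CD4 libraries and 2 in the CD8 libraries. Blnk, another B cell gene, averaged 0.0937 CPM in CD4 cells and 0.355 CPM in CD8 cells. The summed B and plasma cell markers lay at 27.7 to 250.3 CPM in CD4 cells and 35.6 to 485 CPM in CD8 cells. Of the 4 markers tested, Cd79b and the plasma cell marker Sdc1 (-0.81 ± 0.29) were higher in CD8 cells. Jchain (-0.43 ± 0.47) and Cd22 (0.22 ± 0.21) were not called, and Sdc1 missed the threshold in 3 of the 5 fits with a pair left out. The part of RNA from such cells in these 8 values was not tested.

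Csf1, Penk, Tgfb3, Il1r2 and Tbc1d4 were higher in CD4 cells, again picked after their values were seen and standing for no group. Csf1, the growth factor of macrophages, stood at 183, 214, 437, 318 and 173 CPM in CD4 cells, against 40.8, 42.1, 53.1, 71.4 and 37.2 CPM in CD8 cells (2.39 ± 0.15), without overlap. Penk, the precursor of enkephalin peptides (2.84 ± 0.22), Tgfb3 (2.46 ± 0.27), the decoy receptor Il1r2 (2.33 ± 0.43) and Tbc1d4, a regulator of glucose transporter traffic (3.07 ± 0.21), shared the direction, and Il1r2 was not called in the anti-IL-2 pairs alone (adjusted p = 0.0845). Zbtb32, a transcription repressor, was among the most even differences in favour of CD8 cells, with 13.6, 11.2, 15.1, 9.38 and 13.2 CPM in CD4 cells, against 85.0, 68.6, 91.5, 57.8 and 85.1 CPM in CD8 cells (-2.63 ± 0.05).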
